A study of Mus musculus with 9 samples.

Results

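Apoe and 9 other genes of lipoprotein secretion, LXR control and cholesterol transport were followed in mouse bone marrow-derived macrophages (BMDM). The set was chosen by gene symbol: Apoe, Abca1, Abcg1, Nr1h3, Nr1h2, Mylip, Pltp, Npc1, Npc2 and Lpl. All 10 were among the 55536 gene IDs of the deposited table, and all 10 were among the 13815 genes that passed the filter on low counts and were tested. The recipient macrophages of every library were wild-type (label WT), from male mice aged 6 to 12 weeks. The marrow cells were kept in DMEM containing 10% serum, with M-CSF at 25 ng/mL, the growth factor that turns marrow precursors into macrophages. For 18 hours they then received PBS (vehicle), exosomes released by wild-type BMDM (WT-BMDM-exo) or exosomes released by BMDM of ApoE-deficient mice (EKO-BMDM-exo). Both exosome treatments were given at 2e+09 particles/mL. Each of the 3 groups had 3 libraries, described in the design text as biological replicates. Whether these came from separate mice or received separate exosome preparations is not given in the sources used here, so each p-value reflects only how far these libraries varied, which may be technical.

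Macrophages take up lipoproteins and dead cells, and free the cholesterol in their lysosomes, where NPC2 hands it to the membrane protein NPC1 for export. When sterols build up, oxysterols bind the nuclear receptors LXRα (encoded by Nr1h3) and LXRβ (Nr1h2), which pair with RXR on direct repeats of a hexamer and switch on a set of export genes. Among these, ABCA1 loads cholesterol onto lipid-poor apolipoproteins, ABCG1 loads it onto HDL, and the secreted apolipoprotein E carries it away. The phospholipid transfer protein PLTP remodels HDL, the lipoprotein lipase LPL releases fatty acids from triglycerides, and MYLIP (also called IDOL) is a ubiquitin ligase that LXR induces. The comparisons ask how the transcripts of this route stood in macrophages that received vesicles from donors with or without ApoE.

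Abca1 was the member that changed most against PBS, and its promoter is shown because it holds the textbook LXR-type sequence. RefSeq promoters on build GRCm38.p6 were matched by symbol and used for 7 of the 10 genes. No promoter of Abcg1, Npc1 or Lpl was searched. The window used was the 250 bases before the transcription start of 1 RefSeq start per gene. The windows of Apoe, whose protein the donor cells lacked, and of Pltp, the other member that differed between the exosomes, are shown for comparison. Each is on the minus strand and printed 5′ to 3′. The Abca1 window is chr4:53159896-53160145, that of Apoe chr7:19699189-19699438 and that of Pltp chr2:164857709-164857958. Capitals mark 2 patterns searched on both strands: an LXR-type direct repeat with 4 bases between its half-sites, written as the half-site NGGTNA, then 4 bases, then NGGTNA again, and the E-box CACGTG.
Abca1: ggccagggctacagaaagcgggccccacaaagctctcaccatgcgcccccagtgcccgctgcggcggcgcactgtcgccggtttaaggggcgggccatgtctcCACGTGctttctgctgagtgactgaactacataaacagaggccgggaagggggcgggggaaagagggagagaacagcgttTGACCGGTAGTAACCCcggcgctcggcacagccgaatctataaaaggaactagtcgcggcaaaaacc
Apoe: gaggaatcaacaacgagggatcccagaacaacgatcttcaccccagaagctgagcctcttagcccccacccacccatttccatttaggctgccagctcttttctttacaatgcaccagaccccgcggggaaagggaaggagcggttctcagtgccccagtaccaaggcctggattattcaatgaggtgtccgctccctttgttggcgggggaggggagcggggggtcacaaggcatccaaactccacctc
Pltp: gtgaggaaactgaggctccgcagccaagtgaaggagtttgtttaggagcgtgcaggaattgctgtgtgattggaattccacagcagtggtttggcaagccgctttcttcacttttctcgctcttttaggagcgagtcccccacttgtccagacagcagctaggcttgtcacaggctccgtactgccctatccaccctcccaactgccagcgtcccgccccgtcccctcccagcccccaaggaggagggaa
The Abca1 window held the direct repeat from base 67 to base 52 before the start, read on the opposite strand (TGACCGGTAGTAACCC as printed), and an E-box from base 147 to base 142. The 2 matches do not overlap. Neither pattern was found in the windows of Apoe, Pltp, Mylip, Nr1h2, Nr1h3 or Npc2. Sequence outside the windows was not searched for any gene. The Nr1h3 window belongs to a start 7718 bases inside the GENCODE gene, and RefSeq lists 2 starts for Nr1h3 and 3 for Apoe, of which 1 each was searched. Over all 32817 distinct promoter windows of that length, 0.622% held the direct repeat and 6.02% the E-box. The repeat pattern was written with the known Abca1 element in mind, so its match there is a description of the sequence.

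Each library held 28581306 to 35929596 counts. Differential expression was tested with edgeR's quasi-likelihood test on all 9 libraries, and "adjusted p" means its Benjamini-Hochberg value over the 13815 genes, called below 0.05. Levels are given in CPM, read counts scaled to a common library size with TMM factors. In a principal component analysis, replicate 3 of wild-type exosomes stood apart on component 1, at 57.5 against -16.8 to 3.4 for the others. On component 2, with 15.1% of the variance, the second replicates of the exosome groups lay far out, the wild-type one at 45.4 and the ApoE-deficient one at -38.0. The cultures had the markers of macrophages, with all 8 listed genes present and Lyz2 at 14051 CPM after PBS. Their summed level was 22435 to 23686 CPM after PBS, 20783 to 21445 CPM after wild-type exosomes and 20568 to 21550 CPM after ApoE-deficient exosomes. Of 9 neutrophil markers, 4 reached 1 CPM in each group, and the list summed to 20.99 to 29.9 CPM after PBS, 10.4 to 30.7 CPM after wild-type and 3.78 to 18.1 CPM after ApoE-deficient exosomes, with Ly6g, Elane or Mpo at 0 in some groups. Of 7 stromal markers, 2 reached 1 CPM, with sums of 9.08 to 64.6, 16.8 to 29.8 and 5.85 to 25.2 CPM in the same order. Adipocyte, hepatocyte and dendritic cell lists, with 6 genes each, had no member at 1 CPM in any group, and Adipoq was at 0 in all 9 libraries. Of 6 lymphocyte markers, Cd79b alone reached 1 CPM, after PBS. The part of these markers in the results below was not tested.

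**Figure D1:**
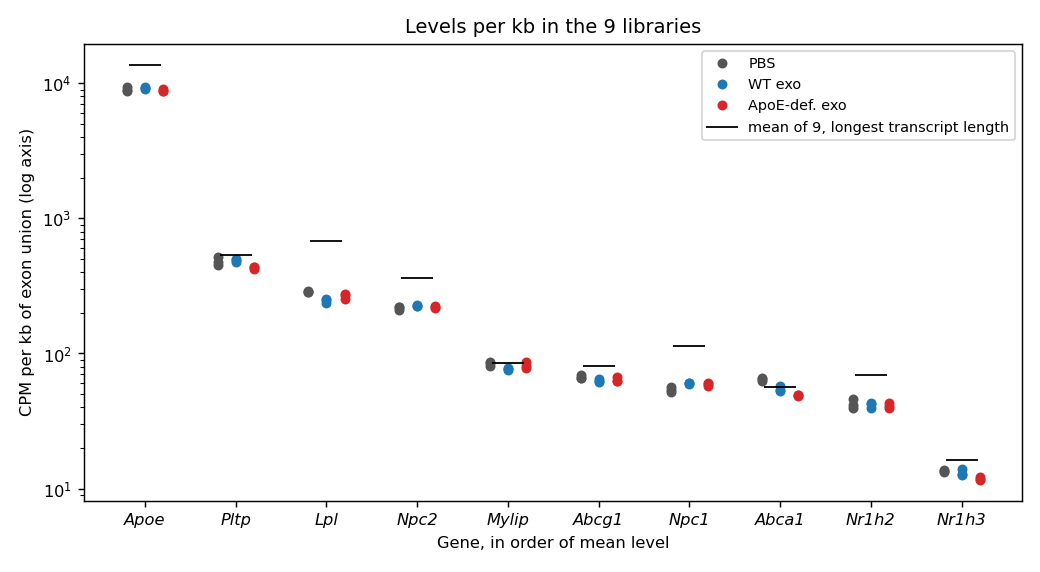
Levels of the 10 genes in CPM per kb of exon union on a log axis; each point is a library, coloured by group, and the black dash is the mean of the 9 libraries with the longest transcript as length. Apoe lies at 8758 to 9431 and Nr1h3 at 11.6 to 14.0.

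Per length, Apoe stood far above the rest of the route and the LXR receptors stood lowest. Apoe averaged 9051 CPM per kb of exon union over the 9 libraries, with a range of 8758 to 9431. Pltp followed at 468, Lpl at 267 and Npc2 at 221 CPM per kb. Below them came Mylip at 81.0, Abcg1 at 64.6, Npc1 at 57.8 and Abca1 at 56.0 CPM per kb. Nr1h2 had 41.6 and Nr1h3 12.8 CPM per kb, so LXRβ transcripts exceeded LXRα transcripts in every library. Npc1 and Abca1 were the only neighbours in this order whose ranges overlapped. With the longest transcript as the length, Lpl (679) passed Pltp (538) and Npc1 (114) passed Mylip (85.4) and Abcg1 (80.8), while Nr1h2 (69.8) passed Abca1 (56.6). Under that length the ranges of Nr1h2 (66.42 to 77.15) and Abca1 (49.03 to 66.63) overlapped slightly, and those of Mylip and Abcg1 overlapped too. Apoe and Nr1h3 stayed at the ends of the order under both lengths.

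**Figure D2:**
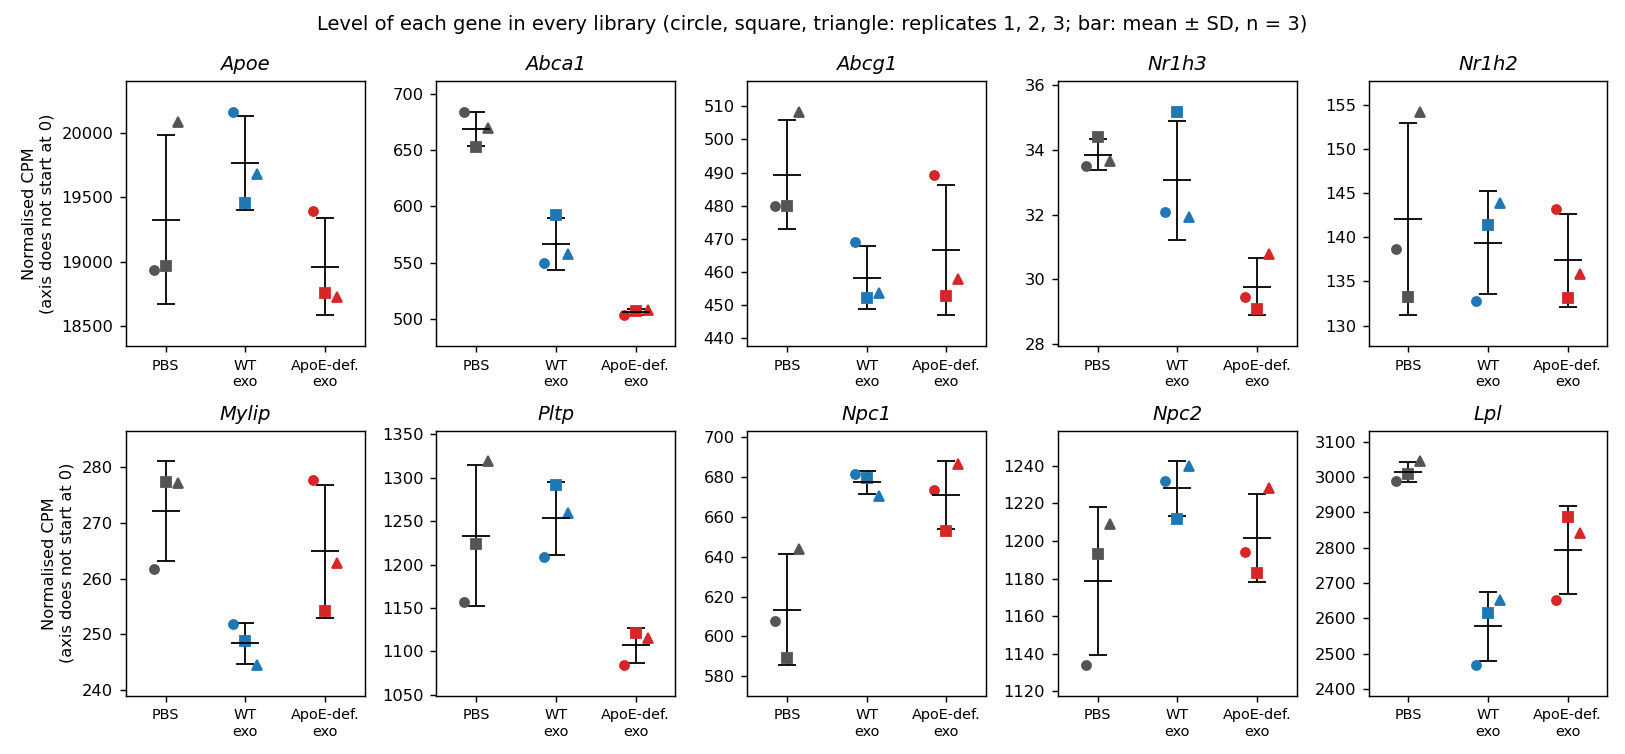
Normalised CPM of each gene in every library, with circles, squares and triangles for replicates 1, 2 and 3 and bars for the mean ± SD (n = 3); the vertical axes do not start at 0. The 3 groups are separate for Abca1, with 653 to 684 after PBS, 550 to 593 after wild-type exosomes and 503 to 508 after ApoE-deficient exosomes.

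Apoe (ENSMUSG00000002985, chromosome 7, 19696109 to 19699188, GENCODE M21 on GRCm38) encodes the lipid carrier whose gene the donors of 1 exosome group lacked. Its level was 18933, 18963 and 20080 CPM in the PBS libraries, replicates 1 to 3. It was 20164, 19452 and 19681 CPM after wild-type exosomes and 19394, 18760 and 18725 CPM after ApoE-deficient exosomes. The PBS libraries spanned most of the range of both treated groups, and those groups did not overlap each other. By CPM, Apoe was the most abundant gene in 5 of the 9 libraries and ranked 2 behind the ferritin gene Fth1 in the other 4. Per kb it ranked 2 in all 9. No comparison of Apoe passed the edgeR threshold. The difference was -1.90% for ApoE-deficient exosomes against PBS (95% interval -5.04% to 1.35%), 2.28% for wild-type exosomes against PBS (-0.998% to 5.66%) and -4.08% for ApoE-deficient against wild-type exosomes (-7.15% to -0.906%), with adjusted p of 0.729, 0.607 and 0.384. The intervals are not adjusted for the number of genes. With 536875 to 708925 counts per library, counting error was 0.13% of the level after PBS, against a spread between libraries of 3.38%. The difference between the exosomes passed in limma-voom (adjusted p = 0.0253) but not with its robust variance prior (adjusted p = 0.665), over a range of 0.0253 to 0.787 across all alternatives.

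Of the efflux transporters, Abca1 passed the threshold in every comparison and Abcg1 in no comparison. Abca1 (ENSMUSG00000015243, chromosome 4, 53030787 to 53159895) had 684, 653 and 670 CPM after PBS. It had 550, 593 and 557 CPM after wild-type exosomes and 503, 507 and 508 CPM after ApoE-deficient exosomes. The groups formed 3 steps with no overlap, and the coefficient of variation of the ApoE-deficient libraries, 0.515%, was below the 0.777% that counting error alone gives. Against PBS, Abca1 fell by 0.40 ± 0.033 (SE) on the log2 scale after ApoE-deficient exosomes (-24.3%, 95% interval -27.7% to -20.8%; adjusted p = 4.93e-11). In that comparison it ranked 7 by p-value among all genes tested. Against PBS it fell by 0.24 ± 0.033 after wild-type exosomes (-15.3%, -19.1% to -11.3%; adjusted p = 4.05e-06). Both comparisons use the same PBS libraries, and both calls held under all 16 alternatives run.

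Between the exosomes, Abca1 was lower with the ApoE-deficient kind, with a log2 fold change of -0.16 ± 0.033 (-10.7%, 95% interval -14.7% to -6.49%; adjusted p = 0.00456). Without replicate 2 of wild-type exosomes, its highest library of that group, the log2 fold change was -0.13 and the call ended (adjusted p = 0.108). It held under the other 15 alternatives. Because these are bulk cultures, fewer cells that express a gene and less RNA of it per cell cannot be told apart.

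Abcg1 (ENSMUSG00000024030, chromosome 17, 31057675 to 31117988), the transporter that serves HDL, showed no such steps. Its libraries had 480, 480 and 508 CPM after PBS, 469, 452 and 454 CPM after wild-type exosomes and 489, 453 and 458 CPM after ApoE-deficient exosomes. The wild-type exosome libraries lay just below those of PBS, while the ApoE-deficient ones overlapped both. The log2 fold changes against PBS were -0.069 ± 0.035 after ApoE-deficient and -0.094 ± 0.035 after wild-type exosomes (adjusted p = 0.413 and 0.146). Between the exosomes the difference was 1.81% (95% interval -3.09% to 6.96%; adjusted p = 0.928). The interval of Abcg1 against PBS after ApoE-deficient exosomes, -9.23% to 0.179%, lay wholly above that of Abca1. No test of the difference between the 2 genes was made.

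**Figure D3:**
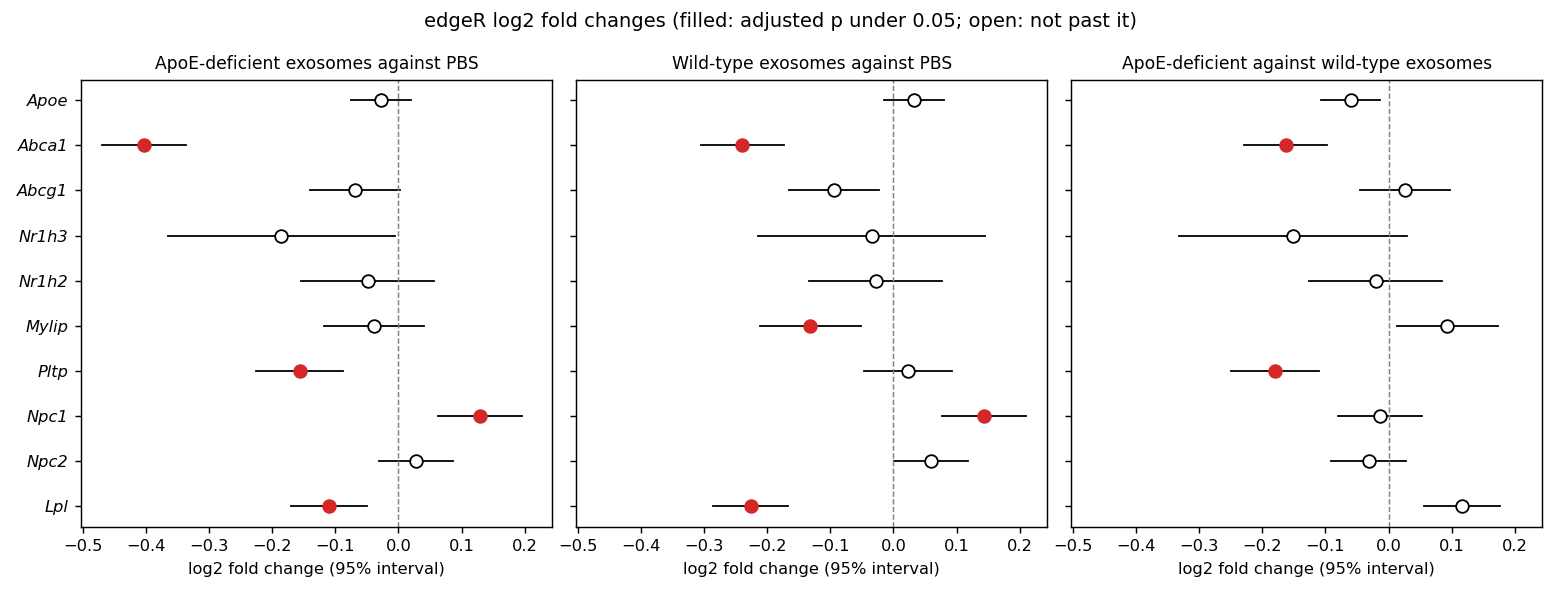
Log2 fold changes of the 10 genes with unadjusted 95% intervals in the 3 comparisons; filled points passed an adjusted p of 0.05. Abca1 is at -0.40, -0.24 and -0.16 from left to right, Npc1 is above 0 in both comparisons with PBS, and Apoe crosses 0 in both.

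The LXR receptor genes themselves did not pass the threshold. Nr1h3 (ENSMUSG00000002108, chromosome 2, 91184061 to 91202834), which encodes LXRα, had 33.5, 34.4 and 33.7 CPM after PBS. It had 32.1, 35.2 and 31.9 CPM after wild-type exosomes and 29.5, 29.1 and 30.8 CPM after ApoE-deficient exosomes. The ApoE-deficient libraries lay below all others, while the other groups overlapped. The log2 fold change of ApoE-deficient exosomes against PBS was -0.19 ± 0.089, with an unadjusted p of 0.0446 and an adjusted p of 0.360. It was -0.034 ± 0.089 for wild-type exosomes against PBS (adjusted p = 0.934) and -0.15 ± 0.089 between the exosomes (adjusted p = 0.720). With 832 to 1188 counts per library this was the shallowest member, and its interval of -22.4% to -0.328% against PBS after ApoE-deficient exosomes was the widest of the 10 in that comparison. The predicted gene Gm13783 overlaps 1.35% of its exon length.

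Nr1h2 (ENSMUSG00000060601, chromosome 7, 44549616 to 44553951), which encodes LXRβ, had 133 to 154 CPM after PBS, 133 to 144 CPM after wild-type and 133 to 143 CPM after ApoE-deficient exosomes. The 3 groups covered almost the same range. Its log2 fold changes were -0.048 ± 0.052, -0.028 ± 0.052 and -0.020 ± 0.052 for the ApoE-deficient kind against PBS, the wild-type kind against PBS and one kind against the other (adjusted p = 0.819, 0.901 and 0.972). The intervals allow a difference of up to -10.1% in the first of these.

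Of the genes for the other secreted proteins, Pltp was lower after ApoE-deficient exosomes, and Lpl was lower after both kinds. Pltp (ENSMUSG00000017754, chromosome 2, 164839518 to 164857711) had 1157, 1224 and 1319 CPM after PBS. It had 1209, 1292 and 1259 CPM after wild-type exosomes and 1084, 1121 and 1115 CPM after ApoE-deficient exosomes. The ApoE-deficient libraries were below all the others, and the PBS and wild-type exosome libraries overlapped. Against PBS, Pltp was lower after ApoE-deficient exosomes, with a log2 fold change of -0.16 ± 0.034 (-10.3%; adjusted p = 0.0030). After wild-type exosomes its log2 fold change was 0.023 ± 0.034 (1.63%, 95% interval -3.14% to 6.64%; adjusted p = 0.862). Between the exosomes it was lower with the ApoE-deficient kind, at -0.18 ± 0.034 (-11.7%; adjusted p = 0.00254).

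Without replicate 3 of PBS, its highest library, the Pltp call against PBS ended at a log2 fold change of -0.11 (adjusted p = 0.0612). It also ended with limma-voom's robust variance prior (adjusted p = 0.104), which ended the call between the exosomes too (adjusted p = 0.202). Exons of Ctsa on the opposite strand overlap 19.3% of the exon length of Pltp, and whether reads were counted by strand is unknown here. Ctsa, a lysosomal protease, had 1438 to 1493 CPM after PBS, 1531 to 1567 CPM after wild-type and 1499 to 1543 CPM after ApoE-deficient exosomes. Its log2 fold changes were 0.055 ± 0.027 after ApoE-deficient and 0.088 ± 0.027 after wild-type exosomes, both against PBS, and -0.034 ± 0.027 from one kind to the other (adjusted p = 0.392, 0.0596 and 0.840). The value after wild-type exosomes passed under 5 of 16 alternatives. The part of Ctsa reads in the Pltp counts was not tested.

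Lpl (ENSMUSG00000015568, chromosome 8, 68880491 to 68907448) had 2990, 3009 and 3045 CPM after PBS. It had 2467, 2614 and 2652 CPM after wild-type exosomes and 2652, 2888 and 2841 CPM after ApoE-deficient exosomes. Both treated groups lay below PBS, and they touched each other at 2652 CPM. Lpl was lower after wild-type exosomes, with a log2 fold change of -0.23 ± 0.029 (-14.5%; adjusted p = 1.85e-06), under all 16 alternatives. It was lower after ApoE-deficient exosomes at -0.11 ± 0.029 (-7.33%; adjusted p = 0.0201). The latter call ended without replicate 1 of ApoE-deficient exosomes (log2 fold change -0.076, adjusted p = 0.261), without replicate 2 of PBS (0.0673), without replicate 3 of PBS (0.0651) and with limma-voom's robust variance prior (0.214). Between the exosomes Lpl had a log2 fold change of 0.12 ± 0.029 (8.39%, 95% interval 4.001% to 13.0%), just outside the threshold at an adjusted p of 0.0501. It passed under 9 of the 16 alternatives, with adjusted p from 0.00249 to 0.458. Adipocytes also make LPL, and the adipocyte markers listed above summed to at most 0.198 CPM in any library. The part of adipocytes or of any other cell type in the Lpl values was not tested.

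The lysosomal exporter Npc1 (ENSMUSG00000024413, chromosome 18) went the other way from Abca1. It had 608, 589 and 644 CPM after PBS. It had 682, 680 and 671 CPM after wild-type exosomes and 674, 653 and 686 CPM after ApoE-deficient exosomes. Every treated library lay above every PBS library, and the treated groups overlapped. Npc1 rose by 0.14 ± 0.033 on the log2 scale after wild-type exosomes (10.4%; adjusted p = 0.00532) and by 0.13 ± 0.033 after ApoE-deficient exosomes (9.39%; adjusted p = 0.0126). Without replicate 2 of PBS, its lowest library, neither passed, at 0.12 and 0.10 (adjusted p = 0.0687 and 0.131). The second call also ended without replicate 1 (0.0667) or 3 (0.121) of ApoE-deficient exosomes or replicate 1 of PBS (0.0556). Between the exosomes the difference was -0.951% (95% interval -5.42% to 3.73%; adjusted p = 0.971). Exons of Rmc1 and the predicted gene Gm15956 overlap 5.31% of its exon length. Rmc1 had 49.9 to 54.4 CPM after PBS, 49.8 to 53.7 CPM after wild-type and 56.4 to 62.0 CPM after ApoE-deficient exosomes, and its adjusted p was 0.279 or above.

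Npc2 (ENSMUSG00000021242, chromosome 12, 84754562 to 84773152), the soluble partner of NPC1, had 1134 to 1209 CPM after PBS, 1212 to 1240 CPM after wild-type and 1183 to 1228 CPM after ApoE-deficient exosomes. The wild-type exosome libraries lay just above PBS, and the ApoE-deficient ones overlapped both. Its log2 fold changes were 0.059 ± 0.029 after wild-type and 0.028 ± 0.029 after ApoE-deficient exosomes, both against PBS, and -0.031 ± 0.029 from one kind to the other (adjusted p = 0.355, 0.813 and 0.878). The first interval ran from 0.00913% to 8.54%.

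Mylip (ENSMUSG00000038175, chromosome 13, 45389742 to 45412022), which encodes the ubiquitin ligase of the set, had 262, 277 and 277 CPM after PBS. It had 252, 249 and 244 CPM after wild-type exosomes and 278, 254 and 263 CPM after ApoE-deficient exosomes. The wild-type exosome libraries were below all 6 others. Mylip was lower after wild-type exosomes, with a log2 fold change of -0.13 ± 0.039 (-8.71%; adjusted p = 0.0485). This call lay close to the threshold and held under 6 of 16 alternatives, with adjusted p from 0.0231 to 0.1999. It ended without each of replicates 2 and 3 of PBS (0.1999 and 0.134), without replicates 1, 2 and 3 of wild-type exosomes (0.0768, 0.122 and 0.190) and without replicates 1, 2 and 3 of ApoE-deficient exosomes (0.0517, 0.0638 and 0.0681). It also ended with no filter on low counts (0.0902) and with only the 6 libraries compared (0.0723). After ApoE-deficient exosomes Mylip had a log2 fold change of -0.038 ± 0.039 against PBS (adjusted p = 0.804), and between the exosomes 0.093 ± 0.039 (adjusted p = 0.464).

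Counted over the 10 genes, ApoE-deficient exosomes against PBS gave 3 lower (Abca1, Pltp and Lpl) and 1 higher (Npc1). In that comparison 4.23% of all genes tested passed (2.41% lower and 1.82% higher), and 9.46% of the 5254 genes at least as abundant by CPM as Nr1h3, the lowest member. The count of the 10 that passed was 2 without replicate 1 of ApoE-deficient exosomes, without replicate 2 of PBS, without replicate 3 of PBS or with limma-voom's robust variance prior. Wild-type exosomes against PBS gave 3 lower (Abca1, Lpl and Mylip) and 1 higher (Npc1), where 4.11% of all genes (2.18% lower and 1.93% higher) and 9.23% of the more abundant genes passed. Without replicate 2 of PBS this count was 2. Between the exosomes 2 were lower with the ApoE-deficient kind (Abca1 and Pltp) and 0 higher by edgeR, where 0.695% of all genes (0.413% lower and 0.282% higher) and 1.54% of the more abundant genes passed. At an unadjusted p under 0.05, 2 were higher (Mylip and Lpl), and DESeq2 and limma-voom each called 1 higher. Without replicate 2 of wild-type exosomes 1 of the 10 passed between the exosomes, and with limma-voom 4 did. The count over all genes between the exosomes fell from 96 to 52 and 56 without replicates 1 and 2 of ApoE-deficient exosomes, and to 59 and 56 without replicates 2 and 3 of wild-type exosomes.

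The libraries of the ApoE-deficient exosome and PBS groups did not overlap for 5 of the 10 genes, as for 18.3% of all genes tested and 26.4% of the more abundant ones. Those of the wild-type exosome and PBS groups did not overlap for 6 (17.5% and 26.0%), and those of the exosome groups for 5 (14.0% and 17.8%). The median log2 fold change of the 10 was -0.058, -0.031 and -0.026 in that order, beside -0.00052, -0.0033 and 0.00019 over all genes tested. An F test for any difference among the 3 groups passed for Abca1, Pltp, Npc1 and Lpl (adjusted p = 1.90e-10, 0.000612, 0.00531 and 4.31e-06), as for 5.28% of all genes. The members were chosen with earlier results of these data known, so these counts describe the members and are no test of the set.

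**Figure D4:**
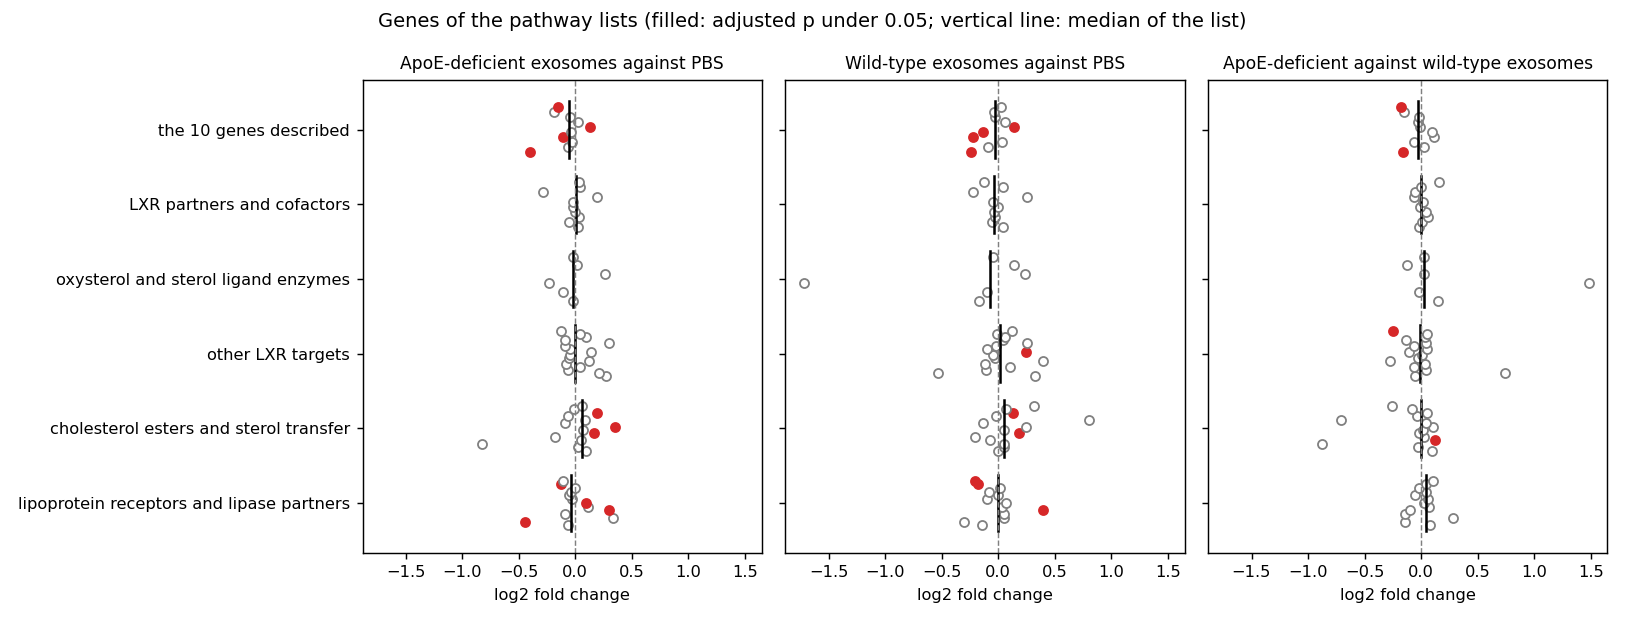
Log2 fold changes of the 10 genes and of 5 further lists of the route in the 3 comparisons, each point a gene, filled where the adjusted p was under 0.05, with a vertical line at the median of the list. Filled points among the partners and the sterol enzymes are absent, and the open point near -1.72 in the middle panel is Cyp39a1, a gene under 2 CPM.

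Of 11 partners and cofactors of LXR, 10 were tested and 0 passed in edgeR in any comparison. DESeq2 and limma-voom also called 0, and 1 was higher in each comparison at an unadjusted p under 0.05. The RXR gene Rxra, whose product pairs with LXR, had 181 ± 7.01 CPM after PBS, 186 ± 1.27 CPM after wild-type and 186 ± 2.80 CPM after ApoE-deficient exosomes (SD, n = 3). Of 8 enzymes that make or clear oxysterols and other sterol ligands, 6 were tested and 0 passed in edgeR, DESeq2 or limma-voom. At an unadjusted p under 0.05 in edgeR, 1 was higher after ApoE-deficient exosomes, 1 higher and 1 lower after wild-type exosomes, and 1 higher with the ApoE-deficient than with the wild-type kind. As the ranks given above show, such unadjusted p-values were common over all genes, so these counts and those of the lists below are descriptions only. By adjusted p in edgeR, 4.23% of all genes passed with the ApoE-deficient kind and 4.11% with the wild-type kind, PBS being the reference. Between the 2 kinds 0.695% passed. Among genes at least as abundant as Nr1h3 these shares were 9.46%, 9.23% and 1.54%. Counts of 0 of 10 and 0 of 6 therefore do not set either list apart from other genes. Cyp27a1, which makes 27-hydroxycholesterol, had 53.5 ± 3.65, 50.1 ± 1.59 and 49.5 ± 2.88 CPM after PBS, wild-type and ApoE-deficient exosomes. Rxra, Cyp27a1, Cyp39a1 and Srebf1 were chosen for mention after their values were seen.

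Of 18 other LXR targets, 16 were tested, and their counts stand beside the same shares of all genes given above, 4.23%, 4.11% and 0.695% in the 3 comparisons. Against PBS, 0 passed in edgeR after ApoE-deficient exosomes (2 higher and 2 lower at an unadjusted p under 0.05, 0 in DESeq2 and 1 lower in limma-voom). After wild-type exosomes 1 passed, the fatty acid synthase gene Fasn, which rose from 109 ± 5.28 to 129 ± 2.38 CPM (0.25 ± 0.054, adjusted p = 0.00322). In that comparison 4 were higher and 1 lower at an unadjusted p under 0.05, DESeq2 called 1 higher and 1 lower, and limma-voom 1 higher and 0 lower. Fasn was at 0.14 ± 0.054 after ApoE-deficient exosomes against PBS (adjusted p = 0.175), and between the exosomes at -0.11 ± 0.054 (adjusted p = 0.630). Srebf1, the LXR target that drives fatty acid synthesis, had 83.0 ± 5.28, 82.5 ± 4.76 and 85.5 ± 6.65 CPM in the 3 groups, and its adjusted p was 0.893 or above. Between the exosomes 1 passed, the transglutaminase gene Tgm2. Its libraries had 560, 578 and 622 CPM after PBS, 598, 641 and 676 CPM after wild-type and 524, 546 and 546 CPM after ApoE-deficient exosomes. The means of the exosome groups lay on either side of that of PBS, though the wild-type exosome and PBS libraries overlapped, at 0.12 ± 0.038 and -0.12 ± 0.038 on the log2 scale (adjusted p = 0.0674 and 0.0593), and their difference was -0.24 ± 0.038 (adjusted p = 0.000183). The call between the exosomes held under all 16 alternatives.

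A list of 14 genes held enzymes that store cholesterol as esters or free it again and proteins that carry sterols between membranes. All 14 were tested, and 3 rose (Soat1, Nceh1 and Osbpl1a) and 0 fell after ApoE-deficient exosomes against PBS, where 1.82% of all genes rose and 2.41% fell. After wild-type exosomes 2 rose (Soat1 and Nceh1) and 0 fell, beside 1.93% and 2.18% of all genes. Of genes at least as abundant as Nr1h3, as Soat1 and Nceh1 are, 9.46% and 9.23% passed in either direction in these 2 comparisons. DESeq2 also called 0 lower in both comparisons, and limma-voom 0 and 1. At an unadjusted p under 0.05 in edgeR, 0 and 2 were lower, the latter being the lipase genes Lipa (-0.071) and Lipe (-0.20), singled out after their values were seen. Soat1, which esterifies cholesterol, had 630, 600 and 615 CPM after PBS, 688, 651 and 686 CPM after wild-type and 714, 699 and 691 CPM after ApoE-deficient exosomes. All treated libraries were above PBS, with log2 fold changes of 0.19 ± 0.032 for ApoE-deficient (adjusted p = 8.43e-05) and 0.13 ± 0.032 for wild-type exosomes (adjusted p = 0.00701). The latter call ended when replicate 2 of PBS (0.0613) or the first wild-type exosome library (0.0503) was left out. Nceh1, a hydrolase of cholesterol esters, rose from 628 ± 11.1 CPM to 703 ± 17.1 CPM after ApoE-deficient and 713 ± 14.9 CPM after wild-type exosomes (adjusted p = 0.000506 and 0.000109), under all 16 alternatives.

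The sterol-binding protein gene Osbpl1a passed only for ApoE-deficient exosomes against PBS, at 0.35 ± 0.10 (adjusted p = 0.0354), and its difference between the exosomes did not pass (0.10 ± 0.10; adjusted p = 0.885). Its call ended without replicates 1, 2 and 3 of ApoE-deficient exosomes (0.0848, 0.116 and 0.129) and without replicates 2 and 3 of PBS (0.242 and 0.0511). Lipa, the acid lipase that splits cholesterol esters in the lysosome, was the 1 gene of this list that differed between the exosomes. In that comparison 0.282% of all genes tested were called higher and 0.413% lower, and 1.54% of those at least as abundant as Nr1h3 passed in either direction. Lipa had 3198, 3084 and 3097 CPM after PBS, 3067, 2892 and 2971 CPM after wild-type and 3289, 3124 and 3304 CPM after ApoE-deficient exosomes. The exosome groups did not overlap, and Lipa was higher with the ApoE-deficient kind by 0.12 ± 0.027 (adjusted p = 0.0159). That call ended without replicates 1 and 3 of ApoE-deficient exosomes (0.194 and 0.151) and without replicates 2 and 3 of wild-type exosomes (0.188 and 0.0919). No gene of the list was lower between the exosomes in edgeR, DESeq2 or limma-voom, and 1 was lower at an unadjusted p under 0.05.

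Of 13 lipoprotein receptors, lipase partners and related transporters tested, 2 fell after ApoE-deficient exosomes against PBS (Sorl1 and Abca9) and 2 after wild-type exosomes (Sort1 and Sorl1), where 2.41% and 2.18% of all genes fell. Among genes at least as abundant as Nr1h3, the shares that passed in either direction were 9.46% and 9.23%. The ApoE receptor gene Lrp1 rose by 0.099 ± 0.025 after ApoE-deficient exosomes against PBS (adjusted p = 0.0109), a call that ended without replicates 1 and 2 of ApoE-deficient exosomes (0.0877 and 0.0613), without replicate 1 of PBS (0.108) and with limma-voom's robust variance prior (0.132). After wild-type exosomes Lrp1 was at 0.073 ± 0.025 against PBS (adjusted p = 0.0980), and between the exosomes at 0.027 ± 0.025 (adjusted p = 0.878). The sorting receptor gene Sort1 fell from 282 ± 12.6 to 244 ± 4.99 CPM after wild-type exosomes (adjusted p = 0.00182), and its relative Sorl1 fell from 274 ± 5.86 to 243 ± 7.89 CPM (adjusted p = 0.00382), both under all 16 alternatives. Sort1 was at -0.11 ± 0.043 after ApoE-deficient exosomes against PBS (adjusted p = 0.228), and between the exosomes at 0.10 ± 0.044 (adjusted p = 0.464). After ApoE-deficient exosomes Sorl1 was at -0.13 ± 0.039 (adjusted p = 0.0468), a call that held under 7 of 16 alternatives, with adjusted p up to 0.287 without replicate 3 of ApoE-deficient exosomes. The other libraries whose removal ended it were replicates 1 and 2 of ApoE-deficient exosomes (0.0720 and 0.101), replicates 1, 2 and 3 of PBS (0.216, 0.102 and 0.0544) and replicates 2 and 3 of wild-type exosomes (0.0592 and 0.0519), and no filter on low counts ended it too (0.114). The transporter gene Abca9 was at -0.45 ± 0.12 after ApoE-deficient exosomes (adjusted p = 0.0168), a call that ended without replicates 2 and 3 of ApoE-deficient exosomes (0.0836 and 0.125) and without replicate 1 of PBS (0.170). After wild-type exosomes Abca9 was at -0.30 ± 0.12 against PBS (adjusted p = 0.173), and between the exosomes at -0.15 ± 0.12 (adjusted p = 0.841). Between the exosomes 0 of these genes passed in edgeR, DESeq2 or limma-voom, and 1 was higher at an unadjusted p under 0.05. In edgeR 0.695% of all genes and 1.54% of those at least as abundant as Nr1h3 passed there, so 0 of 13 lies near those shares.

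Across the 9 libraries, Icam1, Ly86 and Marcksl1 were the 3 of 9260 ranked genes whose log2 CPM followed that of Abca1 most closely, with Pearson r of 0.991, 0.982 and 0.980. Icam1, an adhesion receptor, had 81.9 ± 2.46 CPM after PBS, 70.1 ± 3.09 CPM after wild-type and 61.3 ± 1.84 CPM after ApoE-deficient exosomes. Ly86, a partner of a Toll-like receptor relative, had 137 ± 1.75, 114 ± 3.62 and 106 ± 2.76 CPM in the same order. Among the members, Nr1h3 lay nearest to Abca1 with r = 0.833 and Npc1 farthest with r = -0.737, while Abcg1 had r = 0.512. The genes nearest to Apoe were Snrk, Gna12 and Nup155 (r = 0.971, 0.941 and 0.913), and no member came closer than Pltp at r = 0.620. These correlations rest on 9 libraries in 3 groups, and genes that differ between the groups share that pattern by design.

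**Figure D5:**
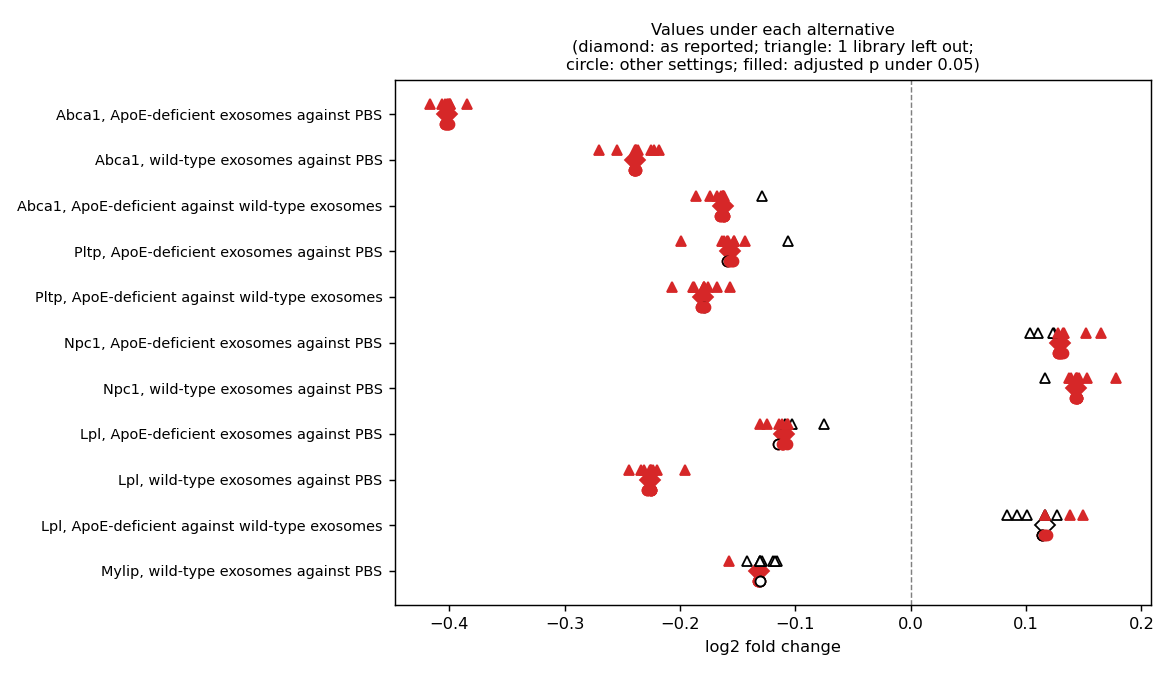
Log2 fold changes of the called member values and of Lpl between the exosomes under each alternative; diamonds are the values as reported, triangles leave out 1 library, circles are other settings, and filled symbols passed an adjusted p of 0.05. All symbols of Abca1 against PBS are filled, at -0.42 to -0.39 after ApoE-deficient and -0.27 to -0.22 after wild-type exosomes.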

How the data were processed

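The authors deposited raw counts per Ensembl gene, with 1 column per library. The tool STAR 2.7.5c and the build GRCm38 are listed per the submitters' processing notes. No source used here gives the annotation or strand setting. All 55536 IDs matched GENCODE M21, which supplied symbols, coordinates and exon lengths. Counts were tested with edgeR 4.0.16 (R 4.3.3): filterByExpr at a minimum count of 10, TMM factors, robust quasi-likelihood fit with the group as the only term over all 9 libraries (28581306 to 35929596 counts), and Benjamini-Hochberg adjustment over 13815 genes. SEs and 95% intervals were derived from the F statistics. Alternatives were DESeq2 1.42.0, limma-voom 3.58.1, RLE factors, no filter, only the 6 libraries compared, the replicate number as a block, and leaving out each library. Limma-voom with a robust variance prior was added after seeing the data. The edgeR, limma-voom and DESeq2 steps were tested on simulated data. The members and lists were chosen with earlier results of these data known. All members were named; from each list at most 4 genes past the threshold could be named, and for Apoe and Abca1 the 3 genes of at least 5 CPM with the highest correlation. The values of 1 gene of the receptor list are not reported here.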

Additional observations from a re-analysis of the deposited data

Results flagged for a closer look

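Among the 10 genes and those of the 5 further lists (10, 6, 16, 14 and 13 tested), 4 differed between the 2 kinds of exosome. The test was that of edgeR for ApoE-deficient against wild-type exosomes, over 3 libraries each. In that comparison 0.695% of all genes tested passed, and 1.54% of those at least as abundant as Nr1h3. The genes and lists were chosen with earlier results of these data known, so the count is no test of them. Abca1 was lower with the ApoE-deficient kind, with a log2 fold change of -0.16 (adjusted p = 0.00456; lower in 3 of 3 libraries than in any wild-type exosome library), and Pltp likewise at -0.18 (adjusted p = 0.00254). The difference of Abca1 was not past the threshold without replicate 2 of wild-type exosomes (adjusted p = 0.108), and that of Pltp with limma-voom's robust variance prior (adjusted p = 0.202). Tgm2 was lower at -0.24 (adjusted p = 0.000183), with the PBS mean between those of the 2 exosome groups. Lipa was higher at 0.12 (adjusted p = 0.0159) and was not past the threshold without replicate 1 or 3 of ApoE-deficient or replicate 2 or 3 of wild-type exosomes (adjusted p up to 0.194).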

How the results depend on the processing

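Of 30 values (10 genes in 3 comparisons), 21 kept their side of the threshold under every alternative run and 9 did not, and no called value changed sign. Genes called between the exosomes numbered 96, against 156 with DESeq2 and 52 to 109 with 1 library left out. The members called between the exosomes numbered 2, against 4 with limma-voom, 1 with its robust variance prior and 1 to 3 with 1 library left out. Against PBS the members called numbered 4 for each exosome, against 2 with limma-voom's robust variance prior for ApoE-deficient exosomes and 2 to 4 with 1 library left out for either. Genes called against PBS were 421 to 586 for ApoE-deficient and 408 to 536 for wild-type exosomes with 1 library left out. Deviations from the group means, over all genes tested, correlated at -0.035 to 0.040 for same-numbered and -0.048 to 0.039 for other pairs of libraries. Not every library correlated best with its own number. This measure thus showed no pairing by replicate number. It weighs genes of low and high counts alike, so it cannot exclude a pairing that touches some of the genes. With the replicate block, 662, 669 and 144 genes were called (585, 568 and 96 without it), and 4, 4 and 3 members, Lpl between the exosomes being the addition (adjusted p = 0.00249). The cause of these changes was not tested. The order of levels depended on the length used, as given above. Nr1h3, with 832 to 1188 counts per library, is the member whose precision depth limits most.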
